A study of Mus musculus with 8 samples.

Results

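A list of 50 genes of the Sox, T-box, forkhead, Zic, Gli and basic helix-loop-helix (bHLH) families was examined for DNA methylation in mouse hepatocytes. Their CpGs were taken from the gene body and the 1500 bases before the start site, strands were summed, and a CpG was kept when it had at least 5 reads in every mouse. This gave 4702 CpGs of 897285 tested in the genome, and every one of the 50 genes held at least 9 of them. By comparison, 27056 annotated genes held at least 1 tested CpG. The 9 forkhead genes held 1235 of the 4702 CpGs, and single genes held from 9 (Olig3) to 262 (Sox5). The neighbours Zic1 and Zic4 shared 114 CpGs, and 24% of the 4702 CpGs also lay in the body of another annotated gene.

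These genes encode DNA-binding proteins that set cell identity in the embryo. SRY-box (Sox) proteins bend DNA through their HMG box, T-box and forkhead proteins carry the domains that name them, Zic and Gli proteins are zinc finger factors, and bHLH proteins bind DNA as dimers. Many of them are silent in adult tissues, where Polycomb complexes commonly occupy their long CpG-rich stretches. Such stretches are usually free of methylation and are known to gain some of it in ageing tissues.

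The libraries came from hepatocytes that were enriched by perfusing the liver of female C57Bl6/J mice, 4 of 40 weeks (mid-aged) and 4 of 10 weeks (young), all controls by the study's methods, which do not say that each library is 1 animal. The livers were perfused with collagenase and the pelleted hepatocytes were frozen. DNA was cut with MspI at CCGG, converted with bisulfite and sequenced (reduced representation bisulfite sequencing, RRBS). Summed over CpGs, reads numbered 84639955 to 118395064 per library at 40 weeks and 46321447 to 72710972 at 10 weeks, with a median coverage per tested CpG of 41 to 76 and 29 to 51 reads. Every mid-aged library was thus deeper than every young one. Each library held many cells, so a difference in all cells and a difference in the mix of cells cannot be told apart. Promoters of the hepatocyte factors Cebpa and Foxa3 were at 1.11% and 2.46% methylation, and those of Adgre1 and Vav1, markers of macrophages and leukocytes, at 87.2% and 66.2%. Tested promoters were found for 4 of 15 hepatocyte, 3 of 12 leukocyte, 1 of 10 endothelial, 7 of 10 stellate cell and 3 of 8 bile duct markers, none of these promoters was called between the ages, and albumin had no tested CpG.

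The 6 stretches printed here show what the assay read in these genes. Foxf2 and Zic1 carry the 2 CpGs that passed the age test, Tbr1 and Sox5 carry the next ones discussed (chosen after their values were seen), and Sox9 and Sox10 contrast an unmethylated with a methylated upstream region. Each is 202 bases of GRCm38.p6 (mm10), written along the gene's strand, with tested CpGs in capitals. In the first 4 the CpG under discussion is at base 101.
Foxf2 coding exon 1, chr13:31626557-31626758, plus strand: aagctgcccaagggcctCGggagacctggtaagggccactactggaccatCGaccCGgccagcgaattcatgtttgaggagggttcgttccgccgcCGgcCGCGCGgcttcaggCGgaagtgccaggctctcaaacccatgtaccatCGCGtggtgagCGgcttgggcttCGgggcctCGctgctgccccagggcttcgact
Zic1 intron 1, chr9:91363662-91363863, minus strand: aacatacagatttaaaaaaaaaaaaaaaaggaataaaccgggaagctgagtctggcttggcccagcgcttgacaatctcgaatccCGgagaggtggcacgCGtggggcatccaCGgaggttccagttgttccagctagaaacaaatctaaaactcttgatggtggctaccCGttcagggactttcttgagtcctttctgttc
Tbr1 coding exon 6, chr2:61812076-61812277, plus strand: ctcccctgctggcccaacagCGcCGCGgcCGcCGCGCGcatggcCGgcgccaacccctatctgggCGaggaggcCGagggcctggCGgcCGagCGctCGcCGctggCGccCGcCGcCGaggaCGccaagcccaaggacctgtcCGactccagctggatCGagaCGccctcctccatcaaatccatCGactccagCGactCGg
Sox5 intron 1, chr6:144202594-144202795, minus strand: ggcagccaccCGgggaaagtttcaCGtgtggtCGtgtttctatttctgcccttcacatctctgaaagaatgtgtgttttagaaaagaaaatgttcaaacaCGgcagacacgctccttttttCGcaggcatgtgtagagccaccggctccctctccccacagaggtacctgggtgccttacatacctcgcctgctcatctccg
Sox9 upstream, chr11:112781286-112781487, plus strand: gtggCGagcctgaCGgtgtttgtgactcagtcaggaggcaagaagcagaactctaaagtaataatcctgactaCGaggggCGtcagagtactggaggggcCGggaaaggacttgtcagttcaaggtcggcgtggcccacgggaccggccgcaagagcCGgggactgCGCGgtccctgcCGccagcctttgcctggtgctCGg
Sox10 upstream, chr15:79165867-79166068, minus strand: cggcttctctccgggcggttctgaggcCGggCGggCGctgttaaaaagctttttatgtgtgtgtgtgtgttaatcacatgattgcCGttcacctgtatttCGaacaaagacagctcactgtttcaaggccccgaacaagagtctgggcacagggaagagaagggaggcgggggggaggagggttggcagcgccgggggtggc
The Foxf2 stretch holds 18 CpGs of which 13 were tested, and the Tbr1 stretch 27 of which 26 were tested. Zic1 and Sox5 are poorer in CpG here, with 8 and 9. Over the 10 tested CpGs of the Sox9 stretch the mean was 2.35% ± 0.21 at 40 weeks and 1.23% ± 0.87 at 10 weeks (SD, n = 4 each). The 5 tested CpGs of the Sox10 stretch were at 93.4% ± 1.3 and 92.6% ± 1.1.

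Most of these genes were nearly free of methylation at both ages. Of the 4702 CpGs 77.9% lay below 10% methylation, 9.19% above 80%, and 76.7% were CpG-dense, with at least 10 CpGs within 100 bases on either side. Among all tested CpGs the shares were 45.1%, 37.7% and 48.4%. The mean of a gene over its CpGs was below 10% in 36 of the 50 genes, between 10% and 25% in 7 and higher in another 7, and its median over the 50 was 5.13% against 37.6% over the 24433 genes with at least 3 tested CpGs. Foxq1, a forkhead gene of stomach and hair follicle, had the lowest mean, 1.21%, 1.21%, 1.28% and 1.15% in the 4 mid-aged mice and 1.06%, 1.003%, 1.05% and 1.11% in the 4 young mice. Its groups did not overlap, but the difference was 0.16 percentage points.

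Start sites were the least methylated places. From the start to 500 bases downstream the 647 CpGs of 38 genes averaged 3.72% ± 0.11 at 40 weeks and 3.09% ± 0.26 at 10 weeks. Values climbed with distance, to 9.38% ± 0.26 and 8.50% ± 0.20 between 2001 and 5000 bases, 19.6% ± 0.2 and 18.7% ± 0.3 between 5001 and 20000 bases, and 83.7% ± 0.3 and 84.2% ± 0.6 farther away, where 9 genes remained. Promoters, taken from 1500 bases before to 500 bases after the start, could be tested in 46 genes and were below 10% in 42, with a median of 3.59%. Low promoters are common in the genome, where 12054 of 17684 were below 10%. The 4 exceptions were Sox10 at 86.2%, Tbx4 at 22.6%, Olig3 at 20.9% on 3 CpGs, and Neurod2 at 17.1%.

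**Figure D1:**
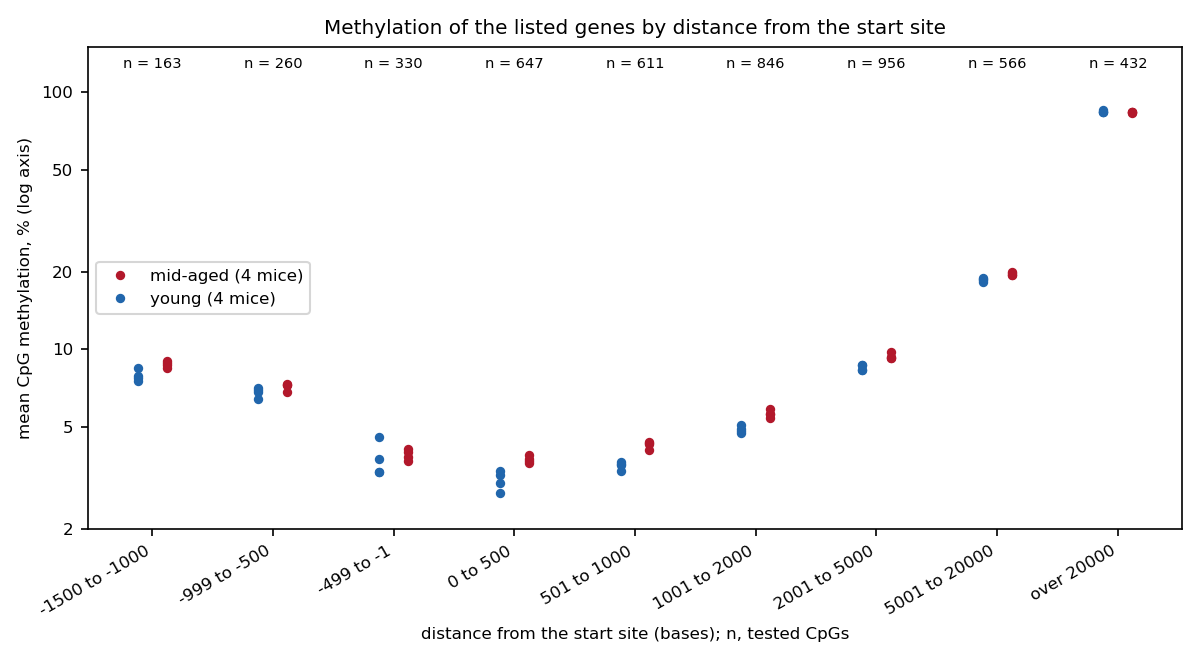
Mean methylation (%, log axis) of the tested CpGs of the 50 genes in bins of distance from the start site (bases), 1 point for each of the 4 young (blue) and 4 mid-aged (red) mice, with the number of CpGs above. Means stay between 3.09% and 9.38% from 1500 bases before to 5000 bases after the start and reach 83.7% and 84.2% beyond 20000 bases.

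The low-methylation stretch around a start was long in these genes. It was taken as the tested CpGs around the start that were not interrupted by a CpG of 50% or more, or by over 2000 bases without a tested CpG. In the 42 genes with an unmethylated promoter it held a median of 71 CpGs over 2879 bases, against 29 CpGs over 738 bases in 9688 other protein-coding genes with such a promoter. It exceeded 5000 bases in 12 of the 42 genes and in 1.33% of the other genes. Zic1 and Zic4 are both among the 12 with the same stretch of 5619 bases. The length also depends on where CpGs were tested, and the part of coverage in this contrast was not tested. Tbx5, a heart and forelimb factor, had the longest with 13761 bases and 88 CpGs, followed by Foxf1, a factor of visceral mesenchyme, with 13232 bases and 212 CpGs. RefSeq promoter sequences (GRCm38.p6, 250 bases before to 50 after the start) were at hand for 36 of the 50 genes. They held a median of 21.5 CpGs against 7 in all 32851 promoters, and CCGG, the palindromic MspI site, was in 30 of 36 against 52.8% of all.

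Methylated CpGs in these genes lay in several kinds of places. Sox5 and Sox6, partners of Sox9 in cartilage, spread over long introns and averaged 77.7% ± 0.1 and 38.8% ± 0.1 in mid-aged mice, although their promoters were at 2.44% and 1.70%. In Gli2, a Hedgehog effector, the first exon's 5' UTR was at 2.87% ± 1.70 and intron 2 at 92.2% ± 1.2 in mid-aged mice. In Tbx3, which drives growth of the liver bud, the promoter was at 1.29% and the 23 CpGs of coding exon 6 at 84.2% ± 2.3. Foxc1, a mesoderm and eye factor, combined 3.93% ± 0.36 over 127 coding CpGs with 36.5% ± 1.5 over the 52 CpGs of its 3' UTR in mid-aged mice. Between the ages the largest difference among these parts was 3.03 percentage points, in the Foxc1 3' UTR, and none of these genes had a called CpG.

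**Figure D2:**
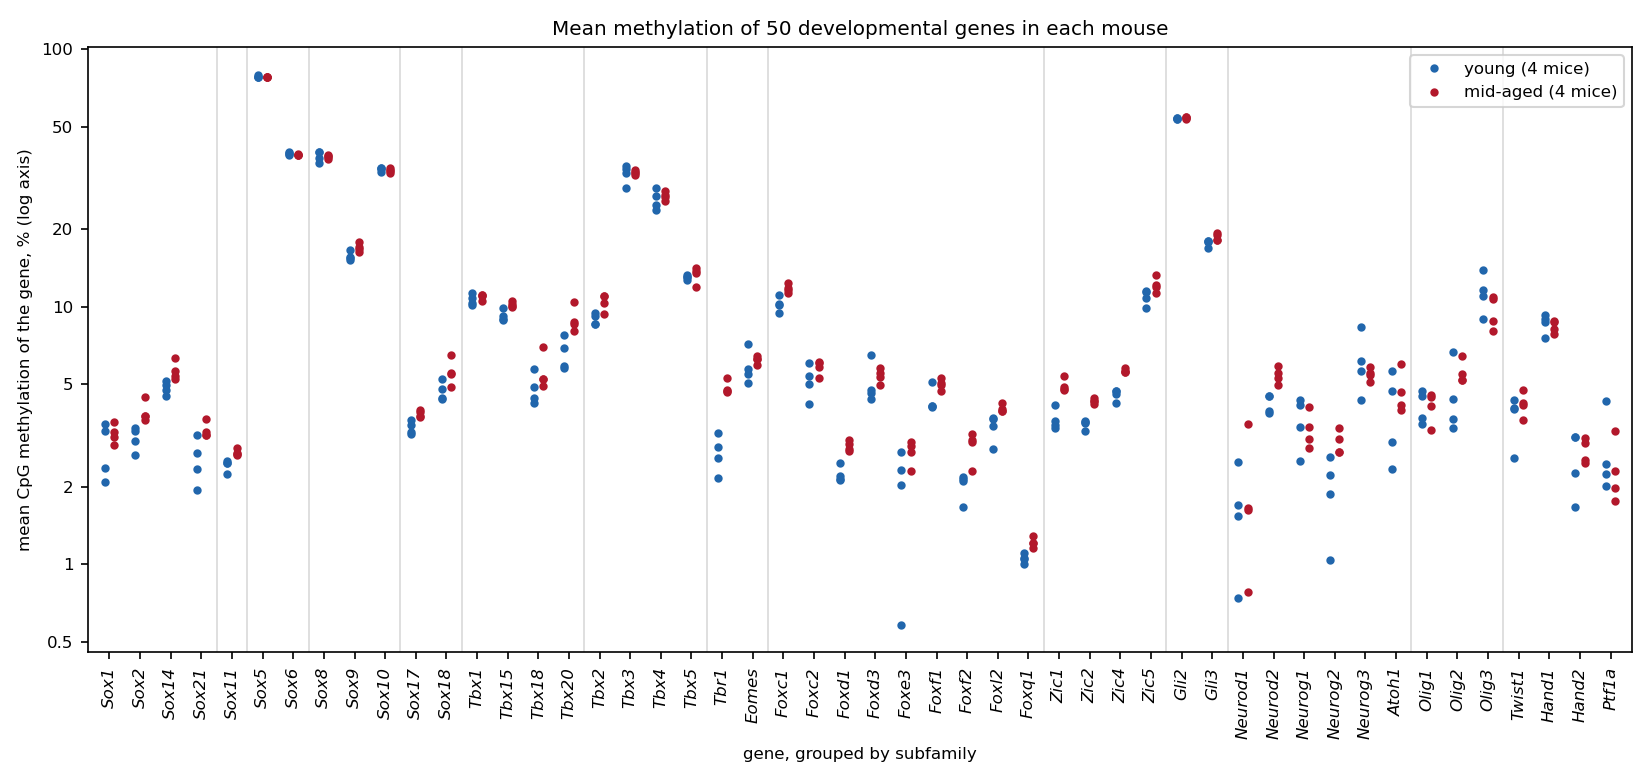
Mean methylation of each of the 50 genes (%, log axis) in every young (blue) and mid-aged (red) mouse, with genes grouped by subfamily between grey lines. Most genes lie below 10%. Over the 8 mice the lowest mean is that of Foxq1 (1.14%) and the highest that of Sox5 (78.0%), and the lowest single point is young 1 in Foxe3 (0.582%).

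The age comparison asked which of these CpGs differed between 40-week and 10-week mice. A CpG was called when a quasi-binomial test on its methylated and unmethylated reads gave an adjusted p under 0.05, the group means differed by at least 5 percentage points, and the variance of the fractions was under 0.05 in both groups. Only 2 of the 4702 CpGs were called higher in mid-aged mice and 0 were called lower. Over the genome 552 CpGs (0.0615%) were called higher and 914 (0.102%) lower, and of the members 0.0425% were called. The members' count is thus no larger than the genome-wide share. Limma on M values called 0 members, and 3 CpGs higher and 0 lower in the genome. At an unadjusted p under 0.05 stood 489 member CpGs, 391 of them higher and 98 lower in mid-aged mice. That is 10.4% of members against 9.09% of all CpGs, where 46263 were higher and 35270 lower. None of the called member CpGs lay in a run of at least 3 called CpGs at most 200 bases apart.

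The first called CpG lies in coding exon 1 of Foxf2, which is needed for gut and palate mesenchyme (position 31626657 of chromosome 13, 841 bases after the start, base 101 of the Foxf2 stretch). Its methylation was 9.30% of 129 reads, 11.2% of 98, 10.0% of 110 and 10.6% of 142 in the 4 mid-aged mice. In the young mice it was 0% of 26, 1.74% of 115, 1.54% of 65 and 0% of 70. All 4 mid-aged values stood above all 4 young ones, although 0 of 26 reads still allows 11.5%. The means were 10.3% ± 0.8 and 0.819% ± 0.950, a difference of 9.45 percentage points with an adjusted p of 0.0477 in the quasi-binomial test. Its neighbours varied. The CpG at base 56 was at 4.41% ± 1.81 and 1.10% ± 1.27, the one at base 103 at 0.177% ± 0.355 and 0.362% ± 0.725, and the one at base 115 at 15.7% ± 4.1 and 15.2% ± 9.6.

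The second lies where the regions of Zic1 and Zic4, factors of cerebellum and neural tube, overlap (position 91363762 of chromosome 9, intron 1 of Zic1 and 1349 bases from the start of Zic4, base 101 of the Zic1 stretch). It was at 10.0%, 17.7%, 17.7% and 17.9% on 150, 480, 496 and 369 reads in mid-aged mice. The young mice had 9.55%, 8.98%, 9.36% and 10.1% on 157, 490, 406 and 247 reads. Mid-aged 1 thus fell among the young mice while the other 3 mid-aged mice stood far above them. The means were 15.8% ± 3.9 and 9.50% ± 0.48, a difference of 6.33 points, adjusted p 0.0482. The 3 other tested CpGs in this stretch had means that were higher in mid-aged mice too, for example 11.8% ± 2.9 against 8.99% ± 1.43 at base 86, without being called.

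Both adjusted p-values were close to the threshold. In the 8 fits that each left out 1 mouse, the Foxf2 CpG was called in 1 (without young 1) and the Zic CpG in 2 (without mid-aged 1 and without young 1), and the number of members called higher ran from 0 to 4. Neither was called by limma on M values, in libraries thinned to the smallest total or with a replicate block.

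The next 4 CpGs were just short of a criterion. In coding exon 1 of Foxc1 a CpG read 5.97%, 4.41%, 3.70% and 4.70% in mid-aged mice and 0% in each young mouse, on 49 to 205 reads that allow up to 6.12%. Its adjusted p was 0.0210, the lowest of all members, but the difference was 4.70 points. A CpG 101 bases before the start of Foxl2, the ovary factor, read 6.65%, 7.11%, 6.79% and 7.36% against 2.04%, 2.48%, 1.56% and 0.680%, adjusted p 0.0571. In intron 1 of Sox5 the CpG at base 101 of the printed stretch read 25.5%, 31.0%, 11.8% and 30.0% in mid-aged and 70.9%, 56.1%, 63.3% and 43.2% in young mice. These groups did not overlap and differed by -33.8 points, with an adjusted p of 0.0750. The Tbr1 CpG read 7.89%, 7.23%, 6.30% and 4.58% in mid-aged mice and 0% in each young mouse, adjusted p 0.0800, where young 1 had only 11 reads, which allow up to 27.3%.

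**Figure D3:**
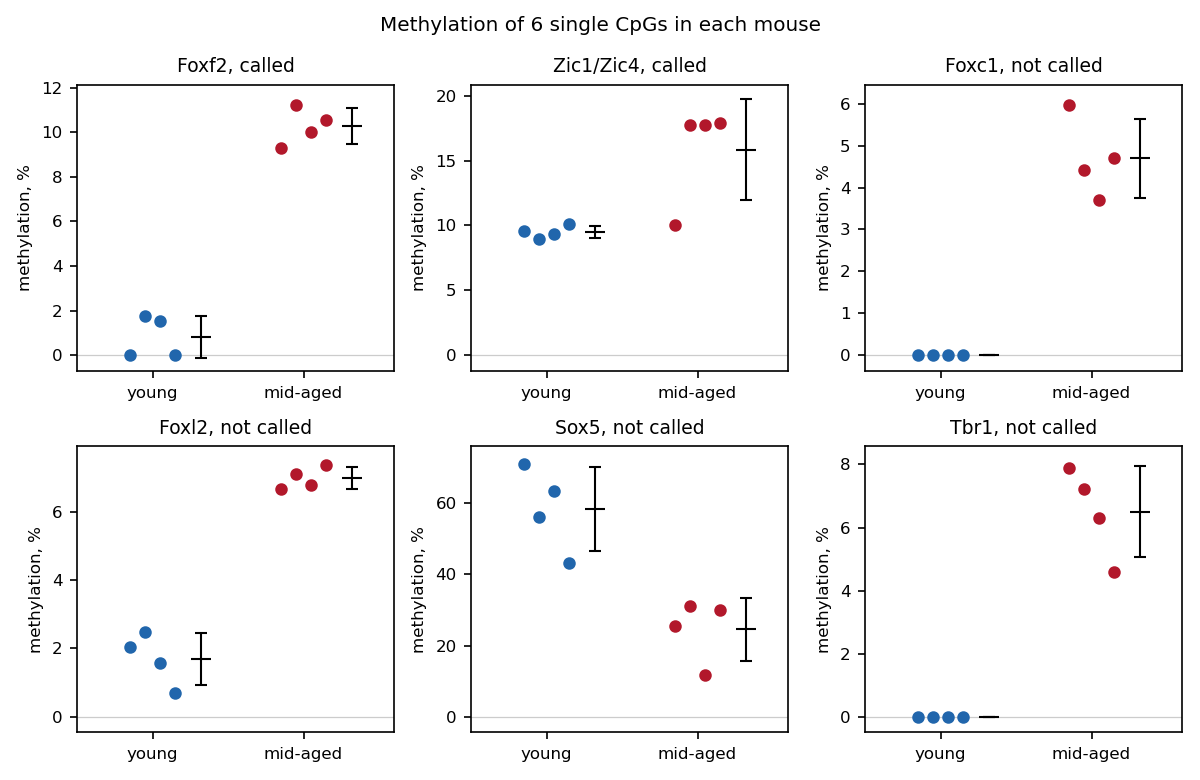
Methylation (%) of 6 single CpGs in each young (blue) and mid-aged (red) mouse, with a black bar for each group's mean ± SD. Foxf2 and Zic1/Zic4 are the called CpGs. In Zic1/Zic4 1 mid-aged mouse lies at 10.0%, beside the young mice, and in the other 5 panels the groups do not overlap.

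The means of whole genes and promoters were then compared with limma. No member had a called gene mean in either direction, against 0.151% of the 24433 genes called higher and 0.147% called lower, and none of 46 promoters was called, against 0.0396% higher and 0.017% lower of 17684. At an unadjusted p under 0.05 stood 4 of 46 promoters, all higher in mid-aged mice, against 1584 of 17684 in the genome, which is about the same share. So did 21 of the 50 gene means, every one of them higher in mid-aged mice, against 2789 of 24433 genes in either direction. Tbr1, a factor of early cortical neurons, was the only member with an adjusted p under 0.05 (0.0227), at a difference below the 5 points required. Its mean over 116 CpGs was 4.65%, 4.74%, 5.27% and 4.71% in mid-aged and 2.59%, 3.22%, 2.86% and 2.17% in young mice, a difference of 2.13 ± 0.28 points (SE). The groups lay well apart, and 95 of its 116 CpGs had a higher mean in mid-aged mice. The last exon, with 72 coding CpGs, was at 3.24% ± 0.23 and 1.68% ± 0.35, and the 4 CpGs of intron 5 at 24.2% ± 5.5 and 15.8% ± 9.2. Leaving out 1 mouse at a time gave adjusted p-values from 0.0312 to 0.0920, under 0.05 only without young 2 or young 4, and the replicate block gave 0.136. Without the trend it was 0.0633, and with reads pooled over the gene the difference was 1.35 points with an adjusted p of 0.163.

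**Figure D4:**
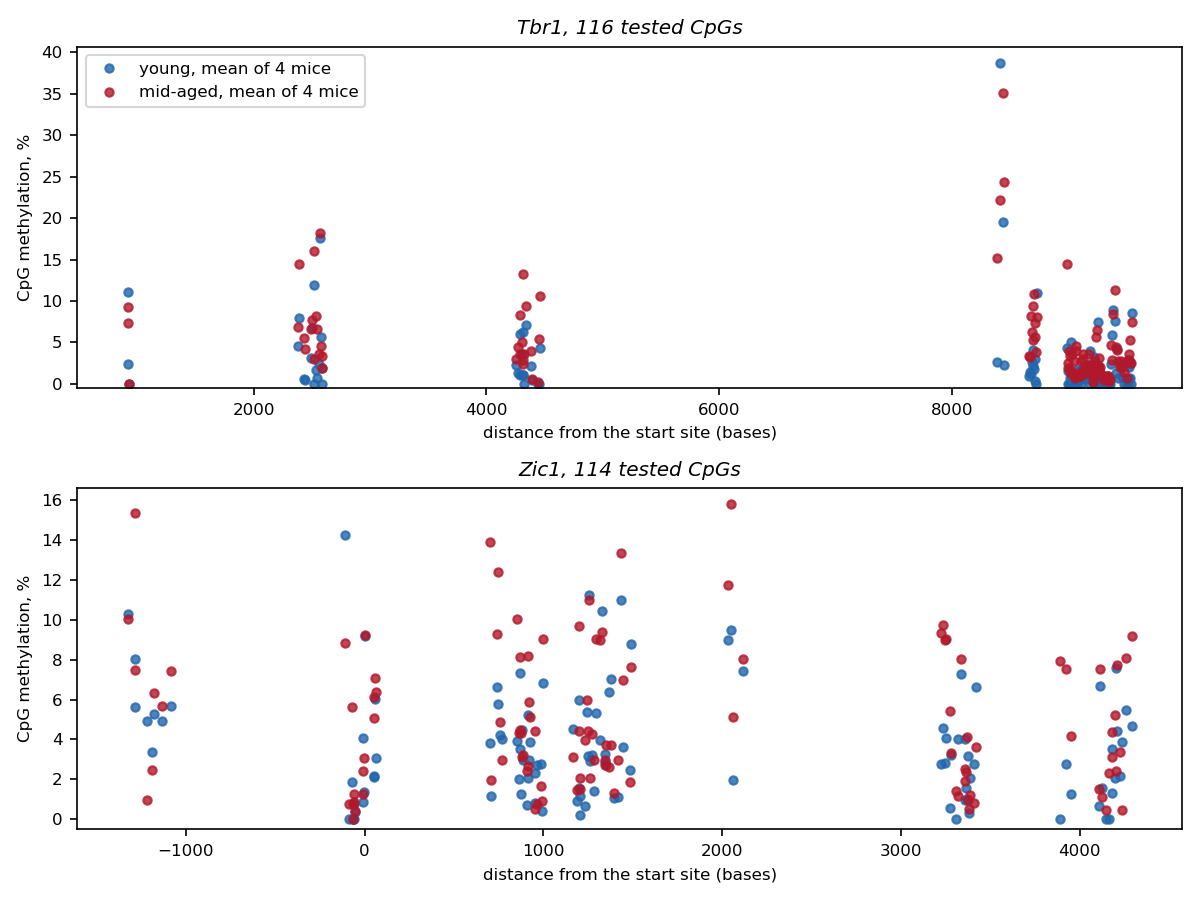
Group means of single CpGs (%) along Tbr1 (116 tested CpGs) and Zic1 (114) by distance from the start site (bases), young in blue and mid-aged in red, 4 mice each. Red points tend to lie above blue ones along both genes, and the highest point of Zic1, 15.8% near 2000 bases, is the called CpG.

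Small differences of 1 sign ran through most of the genes. The gene mean was higher in mid-aged mice in 41 of 50 genes (82.0%), with a median difference of 0.65 points, whereas over all genes tested it was higher in 60.6% with a median of 0.21. All 4 mid-aged mice were above all 4 young mice in 19 of 50 genes and below them in 1, Sox5. Among all genes 5.35% were apart upward and 2.4% downward. Part of the list is not independent, since Zic1 and Zic4 share CpGs.

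**Figure D5:**
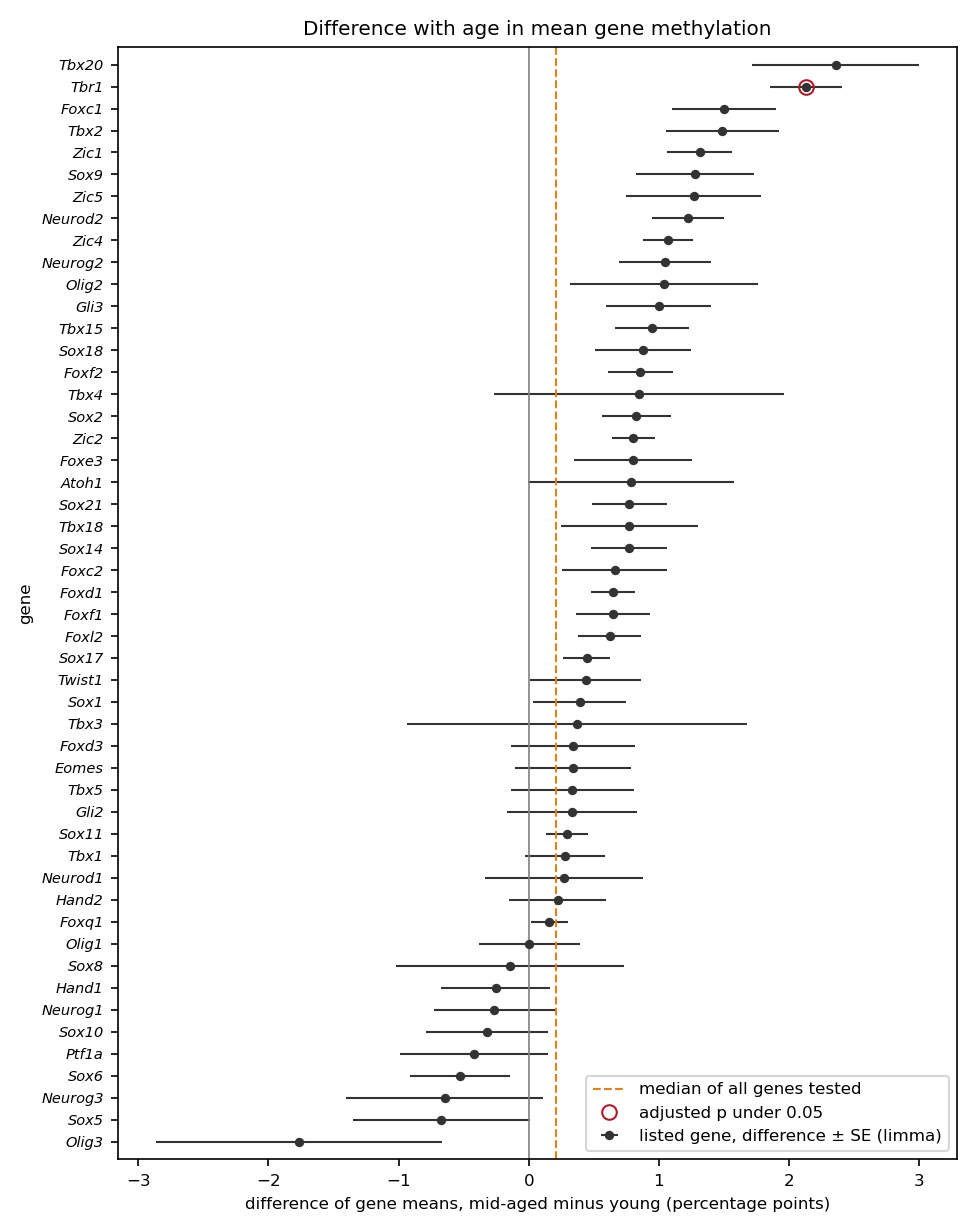
Difference of gene means between mid-aged and young mice (percentage points) with its SE from limma for the 50 genes, in order of size. The dashed line is the median of all genes tested (0.21), and the circle marks Tbr1 (2.13), the one gene with an adjusted p under 0.05. Points run from -1.76 (Olig3) to 2.36 (Tbx20).

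At CpG-dense places of low methylation the ages were apart. The 3247 member CpGs that were dense and below 10% averaged 3.02%, 3.15%, 3.21% and 3.19% in the mid-aged mice and 2.27%, 2.44%, 2.50% and 2.48% in the young mice. Every mid-aged mouse was above every young one, by 0.72 points in the mean. The 348069 other CpGs of that kind in the genome averaged 1.68%, 1.78%, 1.80% and 1.84% against 1.47%, 1.58%, 1.56% and 1.54%, also apart, by 0.24 points. Member CpGs above 80% averaged 92.9% ± 0.2 at 40 weeks and 93.2% ± 0.8 at 10 weeks, where the mice overlapped. Reads over mitochondrial CpGs, a DNA that is commonly taken as nearly unmethylated, were 1.22%, 4.75%, 3.48% and 2.78% methylated in the mid-aged libraries and 1.67%, 1.73%, 1.22% and 1.64% in the young ones. It was higher in mid-aged 2, 3 and 4 than in every young library, and mid-aged 1 was close to the lowest young one. On a further sequence, named L in the files and not explained in the sources used, 3.56%, 1.06%, 0.463% and 0.667% of reads were methylated in the mid-aged and 4.08%, 0.554%, 1.40% and 0% in the young libraries. Only 147 to 449 reads per library lay on it (95% Wilson intervals 2.21% to 5.71% in mid-aged 1, 1.88% to 8.62% in young 1 and 0% to 2.42% in young 4), and the libraries it sets highest are mid-aged 1 and young 1. The part of either share in the small shift was not tested. Markers of other cell types also differed in places. The gene mean of Csf1r, a macrophage receptor, averaged 39.4% ± 2.3 at 40 weeks and 51.2% ± 4.2 at 10 weeks without overlap (adjusted p 0.0712 in limma). Those of Pecam1 and Erg, of endothelium, and of Des and Reln, of stellate cells, lay higher without overlap, by 2.25, 1.37, 1.43 and 0.87 points, and none was called. Among all genes 5.35% were apart upward and 2.4% downward. The other markers of these 3 cell types with a gene mean overlapped. Differences were 2.39, -0.37 and -3.54 in Tek, Cdh5 and Egfl7 of endothelium, and 7.91 and -2.01 in Itgam and Vav1 of leukocytes. All stellate cell markers with a gene mean differed upward. The mean over the tested leukocyte promoters ran from 76.9% to 84.7% in mid-aged and 76.9% to 88.2% in young mice, and over the stellate cell promoters from 21.3% to 23.9% and 21.7% to 23.1%. Their part in the shift was not tested either. When reads were pooled over each region instead of averaging CpGs, the median difference was 0.30 in the members and -0.90 in all genes, and 29 of 50 members were above 0.

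Within the Sox family the 4 genes of neural progenitors all had a higher mean in mid-aged mice. Sox2, a factor of pluripotent and neural stem cells, had 3.64%, 4.47%, 3.76% and 3.75% in mid-aged and 2.65%, 3.28%, 3.38% and 3.01% in young mice, which did not overlap. Its difference of 0.83 ± 0.27 points had an adjusted p of 0.291. Sox14 and Sox21, both expressed in neurons, also stood apart with differences of 0.77 points each, and Sox1 overlapped at 0.39. Sox11, a gene of newborn neurons, differed by 0.29 and Sox17 of endoderm by 0.45, both without overlap. Sox18 of vessels differed by 0.88 with overlapping mice. The Sox9 gene mean was 17.8%, 16.7%, 16.2% and 17.1% against 15.4%, 15.1%, 16.6% and 15.5%, overlapping, with a difference of 1.28 ± 0.45. Sox9 is the chondrocyte and bile duct factor, and its 17 CpGs in coding exon 2 were already at 39.1% ± 2.7 in young mice. Its relatives Sox8 and Sox10, of neural crest and glia, had differences of -0.14 and -0.32, and Sox5 and Sox6 of -0.67 and -0.53. None of the 12 Sox gene means passed adjustment.

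All 8 Tbx genes and both genes of the Tbr1 group had a higher mean in mid-aged mice. Tbx20, a heart factor, showed the largest difference of all 50 genes on only 22 CpGs, with 10.5%, 8.57%, 8.72% and 8.04% in mid-aged and 5.88%, 6.93%, 5.77% and 7.77% in young mice. The groups did not overlap, and the difference of 2.36 ± 0.64 points had an adjusted p of 0.216. Tbx2, a repressor in limb and heart, differed by 1.49 ± 0.43 with 134 of 200 CpGs higher, and Tbx15, of skeleton and muscle, by 0.95 ± 0.29. Tbx3, Tbx4 and Tbx5 differed by 0.37, 0.85 and 0.33 points with SE of 1.31, 1.12 and 0.47, and Tbx1, Tbx18 and Eomes by 0.28, 0.77 and 0.34. Eomes, which also acts in T and NK cells, read 6.43%, 6.24%, 6.25% and 5.91% against 7.19%, 5.49%, 5.73% and 5.07%. Its highest value belonged to young 1, the shallowest library.

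Each of the 9 forkhead genes was higher in the mean, and 5 did so without overlap. Foxf2 averaged 2.30%, 3.22%, 3.03% and 2.98% in mid-aged and 1.68%, 2.18%, 2.10% and 2.14% in young mice, a difference of 0.86 ± 0.25 with an adjusted p of 0.244. Foxc1 differed by 1.50 ± 0.40, with coding exon 1 at 3.93% ± 0.36 against 2.75% ± 0.92 and its 3' UTR at 36.5% ± 1.5 against 33.4% ± 2.5. Foxd1 of kidney stroma differed by 0.65 ± 0.17 and Foxl2 by 0.62 ± 0.24. Foxc2, Foxd3, Foxe3 and Foxf1, of lymph vessels, neural crest, lens and visceral mesenchyme, overlapped between the ages at differences of 0.66, 0.34, 0.80 and 0.65. Of the 1235 forkhead CpGs 8.26% had all mid-aged mice above all young mice and 0.49% the reverse, against 2.33% and 1.24% of all tested CpGs. Most forkhead CpGs (92.2%) were dense. Among CpGs outside the listed genes that were dense and below 10%, the shares were 2.82% and 0.17%.

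The Zic genes 1, 2 and 4 had the next lowest adjusted p-values after Tbr1. Zic4 averaged 5.60%, 5.62%, 5.77% and 5.57% in mid-aged and 4.73%, 4.73%, 4.60% and 4.24% in young mice, which did not overlap, a difference of 1.07 ± 0.19 with an adjusted p of 0.0693. Zic1 differed by 1.31 ± 0.25 (adjusted p 0.0909) and Zic2 by 0.80 ± 0.17 (0.109), each without overlap. In Zic1 the 10 CpGs of the 5' UTR were at 7.02% ± 0.70 against 3.91% ± 1.09 and the 45 coding CpGs of exon 1 at 4.74% ± 0.21 against 3.74% ± 0.31. Zic5, beside Zic2, had 30.0% ± 1.6 against 27.4% ± 2.3 in its intron and 1.49% ± 0.52 against 1.04% ± 0.52 in coding exon 1. Gli3, the Hedgehog repressor, differed by 0.997 ± 0.402 and Gli2 by 0.33 ± 0.50.

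The bHLH genes were mixed. Neurod2, a factor of cortical neurons, had 5.28%, 5.88%, 4.97% and 5.53% in mid-aged and 4.49%, 3.92%, 3.85% and 4.50% in young mice, a difference of 1.23 ± 0.28 with an adjusted p of 0.135. Neurog2, which commits cells to neurons, differed by 1.05 ± 0.35, and both genes were free of overlap. Neurod1, Neurog1, Neurog3 and Atoh1 had differences of 0.27, -0.26, -0.65 and 0.78 points with SE from 0.46 to 0.79. Of the oligodendrocyte lineage genes Olig1 was level at 0.01 ± 0.39, Olig2 differed by 1.04 ± 0.72 and Olig3 by -1.76 ± 1.10 on 9 CpGs. Twist1, Hand1, Hand2 and Ptf1a, of mesoderm, heart and pancreas, stayed between -0.42 and 0.44.

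Other genes of the same families were read in the same fit. They were 7 Sox, 6 T-box, 34 forkhead, 5 Zic or Gli and 46 bHLH genes with a tested CpG, and none had a called gene mean or promoter in limma. Scx, a tendon bHLH gene which the study picked on these libraries and which is no independent evidence, had 7 called CpGs, all higher, all in coding exon 1 within 214 to 273 bases of the start. The CpG at 250 bases averaged 89.1% ± 1.1 at 40 weeks and 47.6% ± 15.5 at 10 weeks. The gene mean of Scx was 77.2% ± 0.7 against 58.7% ± 9.2 and did not pass adjustment (0.127). Young 1 held the lowest value, 44.9%, and without it the difference was 13.99 points with an adjusted p of 0.0032 in limma, which is a call. Single called CpGs were found in Sox3 (44.4% ± 4.9 against 84.2% ± 6.3), Foxo3 (35.6% ± 3.5 against 56.5% ± 10.1) and Glis1 (85.6% ± 0.6 against 97.7% ± 1.9), all lower, and in Glis2 (60.6% ± 3.5 against 32.9% ± 12.9), higher. These other genes held 580 tested CpGs in Sox, 142 in T-box, 2894 in forkhead, 649 in Zic or Gli and 2185 in bHLH genes. Of all tested CpGs in the genome 0.163% were called. Of 32 Polycomb subunit genes, which act on many developmental loci, Bcor on the X chromosome had 3 called CpGs and Pcgf5 had 1, all lower, and no gene mean was called. These were 4 of 3055 tested CpGs in the 32 genes, a share no larger than the 0.163% of all tested CpGs. Their median difference was 0.20 points, close to that of all genes.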

How the data were processed

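The 8 libraries were reduced representation bisulfite libraries of perfused hepatocytes, 4 per age. The submitters' processing notes name Trim Galore 0.4.2, BWA 0.6.2, SAMtools 1.3, Picard 1.115, FastQC and the build mm10, without their settings, and the authors' methods credit the methylation calls to the DEEP pipeline without naming a caller. The deposited tables give, for each CpG and strand, a methylation percent and the read count behind it. The reads carry no molecular identifiers, so they are not independent molecules and intervals cover counting error only.

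Methylated reads were recovered as the percent times the count, strands were summed, and CpGs with at least 5 reads in all 8 mice were kept. All but 22 of the tested positions are CpGs of GRCm38.p6. Genes came from GENCODE release 21 for mouse. Exons, introns and untranslated parts were named by a single transcript per gene, which can start far from the gene's start site, as in Sox5. The CpG test was a logistic model with age as its term, its likelihood ratio divided by a Pearson dispersion that was moderated across CpGs with limma 3.58.1 (R 4.3.3) and not allowed below 1, adjusted by Benjamini-Hochberg over all CpGs. Gene and promoter means needed at least 3 CpGs and were fitted by limma with a trend over all genes. The tests were checked on simulated data. Arrays were handled in pandas 2.3.3 and numpy 2.4.6 under Python 3.11.15, with statistics from scipy 1.17.1 and plots from matplotlib 3.10.9. All tests were two-sided. Nothing states that each library is 1 animal. Each was taken as 1 mouse, and p-values measure only the spread between these libraries.

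The gene list, the other gene lists and the markers were chosen with earlier results of these data known. Genes were described with all values when they had a called CpG, mean or promoter, and others with values given here (among them Tbr1, Foxc1, Foxl2, Sox5, Tbx20, Neurod2, Sox2, Sox9, Eomes and Foxq1) were chosen after their values were seen. No 2 libraries agreed in both counts at more than 0.961% of tested CpGs. Same-numbered mice of the 2 ages did not deviate together over CpGs between 20% and 80%, with correlations of -0.003 to 0.008. That range leaves out CpGs of low methylation, and the sources do not say what the numbers mean. Whether they pair mice or mark a batch thus cannot be told. Alternatives were limma on M values, other read minimums and differences, thinned libraries, reads pooled over a region, no trend, the replicate block and leaving out each mouse.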

Additional observations from a re-analysis of the deposited data

Results flagged for a closer look

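In 10 of 104 groups of 4 mice, where chance gives about 1 in 20, 1 mouse stood apart from the other 3. Mid-aged 1 had 10.0% at the called Zic1 CpG against 17.7% to 17.9% in the other mid-aged mice. Among gene means, mid-aged 2 had 4.47% in Sox2 (others 3.64% to 3.76%), mid-aged 4 had 6.97% in Tbx18 (4.91% to 5.24%), and mid-aged 3 had 5.27% in Tbr1 (4.65% to 4.74%) and 5.41% in Zic1 (4.77% to 4.88%). Young 2 had 79.6% in Sox5 (77.9% to 78.1%), young 3 had 5.08% in Foxf1 (4.08% to 4.13%) and 17.0% in Gli3 (17.9% in each of the others), and young 1 had 1.68% in Foxf2 (2.10% to 2.18%) and 3.29% in Zic2 (3.55% to 3.59%).

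Mitochondrial CpGs, which enter no comparison here, had methylated shares of 4.75%, 3.48% and 2.78% in mid-aged 2, 3 and 4, above the interval of every young library.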

How the results depend on the processing

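The 2 member CpGs called higher became 0 with limma on M values, with a minimum difference of 10 points and with the replicate block, and 1, in Foxc1, with libraries thinned to the smallest total. Leaving out 1 mouse gave 0 to 4 CpGs called higher and 0 to 1 called lower. With at least 20 reads in every mouse 1 CpG of Sox5 was called lower in place of 0. By adjusted p alone 1 gene mean, that of Tbr1, passed as higher in place of 0. The counts of runs, of promoters and of gene means called lower stayed at 0 under every alternative run. The replicate block was fitted with CpGs left out of the moderation when a pair had reads of 1 kind only, which was chosen after a first fit without that step gave 0 calls in the genome. Among the listed genes it changed no call other than those of the 2 CpGs and left Tbr1 at an adjusted p of 0.136. In the genome it left 89 CpGs called higher and 88 lower in place of 552 and 914, 11 and 6 gene means in place of 37 and 36, and 0 promoters in place of 7 and 3, with 1476 promoters at an unadjusted p under 0.05. Whether same-numbered mice share more than a number is not stated, so what a call lost under the block means cannot be told. Pooling reads over regions moved the median difference of all genes from 0.21 to -0.90 points and changed the sign of 16 of the 50 gene differences, and the cause was not tested. Under the other alternatives at most 4 of 50 changed sign. Depth limits the young mice most, since young 1 had a median of 29 reads per CpG.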
